A study of Mus musculus with 5 samples.

Results

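Nodal and the activins are ligands of the TGF-beta family that signal through the same pair of receptor types. A ligand dimer binds a type II receptor (Acvr2a or Acvr2b), which phosphorylates a type I receptor (Acvr1b), and the activated type I receptor phosphorylates Smad2 and Smad3, which enter the nucleus with Smad4 and act there with partners such as Foxh1. Nodal additionally needs a co-receptor of the EGF-CFC family (Tdgf1 or Cfc1). The pathway is held in check outside the cell by Lefty1 and Lefty2, which block Nodal and its co-receptor and are themselves induced by Nodal signalling, and by follistatin (Fst) and follistatin-like 3 (Fstl3), which bind activins. In the mouse embryo Nodal keeps the epiblast pluripotent and then patterns the primitive streak, and in liver activin A restrains hepatocyte growth.

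The Nodal, activin and follistatin axis is described here in 10 genes of the 18300 genes named on the array, the ligand genes Nodal, Inhba and Inhbb, the antagonist genes Lefty1, Lefty2, Fst and Fstl3, and the receptor genes Acvr1b, Acvr2a and Acvr2b. They were selected on their signals across the same 5 arrays, so their levels are a description and no test was made of them. All 10 had a probe, 12 probes in all, with 2 each for Inhbb and Acvr2a. The study fused embryonic stem (ES) cells with cancer cells to examine how malignant progression relates to cell differentiation. As part of this it compared array profiles of the parents with those of a hybrid before and after differentiation. ES is the mouse line E14, grown in Glasgow minimum essential medium with 10% serum replacement, 1% fetal bovine serum and 1000 units/ml leukemia inhibitory factor (LIF). EHe is a hybrid made by fusing E14 cells, which carried RFP and hygromycin resistance, with GFP-labelled, neomycin-resistant Hepa1-6 cells. It was grown in the same LIF medium. EHeD7 and EHeD14 are EHe cells differentiated for 7 and 14 days, per the labels as a monolayer on gelatin without mention of LIF, in high-glucose DMEM and 15% fetal calf serum. Hepa1-6 is a mouse hepatoma line, kept in high-glucose DMEM and 10% fetal calf serum. The study describes the hybrids as drug-selected colonies of ES-like shape, each from a single fusion, and almost all hybrid lines as near-tetraploid, and which colony gave the RNA is not given in the sources used here.

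Each condition had 1 array, so there was no replicate error and no p-value, and the number of arrays limits the precision. A level below is the log2 signal of a probe minus the 75th percentile of its array, and levels are compared between arrays within a probe, not between genes, except to name the probe that adds most to a summed marker signal. The scanner software called between 54.8% of probes (Hepa1-6) and 67.7% of probes (EHeD7) well above background. The only error used to compare levels was spot noise. Probes printed several times on an array and well above background had a median SD of 0.07 to 0.10 on the log2 scale, and of up to 0.15 where they were dim. Levels on 2 arrays that lay within 0.27 are called not apart beyond spot noise, a limit set from the larger end of the 0.07 to 0.10 range, so that it is too narrow for dim signals. Each signal also carried an error of its own, 10.0% for Nodal in ES and 20.1% for Inhba in EHeD14. The limit does not include that error, so steps just past the limit may lie within it. Where a signal was not well above background, a fold is given as a lower bound, against the dimmest signal called well above background on that array or the probe's own signal if that was higher. Such a bound holds for the scaling used here, and another scaling can lower it. The arrays of ES, EHe, EHeD7 and EHeD14 shared 1 slide, and Hepa1-6 was on another, so slide and cell line cannot be told apart. The medium changed together with the differentiation state, and those too cannot be told apart. In RNA from a whole culture, fewer cells of a type and less RNA per cell cannot be told apart either.

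The labels were checked against marker genes. All 6 ES cell markers with a probe were well above background in ES, EHe, EHeD7 and EHeD14, and 2 of 6, Klf4 and Dppa5a, in Hepa1-6. Their summed linear level was 328 in ES and 378 in EHe, 226 in EHeD7 and 121 in EHeD14, and 23.5 in Hepa1-6, with Dppa5a the brightest in every array but Hepa1-6, where it was Klf4. Pou5f1, which encodes Oct4, lay at 3.75 in ES and 4.04 in EHe, then 4.41 in EHeD7 and 4.18 in EHeD14 and was not well above background in Hepa1-6. Esrrb went from 4.02 in EHe to 0.37 in EHeD7 and -2.84 in EHeD14. Sox2 was 3.46-fold lower in EHeD7 and 4.48-fold lower in EHeD14 than in EHe. The differentiated hybrids therefore still gave an Oct4 signal, with lower signals for Sox2 and several naive-state genes. Of 7 hepatocyte or hepatoma markers, 4 were well above background in Hepa1-6, where Afp (6.77), Alb (6.06) and Fgb (4.70) were bright, while Ttr, Apoa1 and Ahsg were not well above background. In EHe, EHeD7 and EHeD14 only Ahsg of that list was. In ES both Ahsg (1.43, its highest level) and Afp (-4.02) were, so the list does not mark the hepatoma alone.

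Nodal, the ligand that gives the axis its name, was measured well above background on all 5 arrays. Its level was 3.84 in ES and 3.59 in EHe, 5.42 in EHeD7 and 5.41 in EHeD14, and -2.29 in Hepa1-6. The differentiated hybrids were highest and did not differ from each other beyond spot noise, ES and EHe came next, and Hepa1-6 was far lower. The difference of EHe from ES, -0.25, was within the spot noise limit, but with normexp it was -0.36 and past it. Nodal was 3.54-fold higher in EHeD7 than in EHe and 3.53-fold higher in EHeD14. It was 70.3-fold lower in Hepa1-6 than in ES, a log2 difference of -6.14 that was -5.35 with median centring. The Nodal gene lies at chr10:61417972-61425338 (GRCm38.p6).

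Inhba encodes the beta-A chain, which as a homodimer forms activin A. Its signal was not well above background in ES (-7.45) or EHe (-7.05). It reached -3.93 in EHeD7, -5.23 in EHeD14 and -2.14 in Hepa1-6, all well above background. Inhba was thus seen in the hepatoma and, dimly, in the differentiated hybrids, and Hepa1-6 was at least 9.72-fold above ES, a log2 bound of 3.28 that was 1.74 with normexp background correction. EHeD7 was at least 1.88-fold above EHe, a bound that does not reach 3-fold, and no fold can be given for EHeD14 against EHe because its signal lay under the limit of the EHe array. EHeD14 was 2.46-fold below EHeD7, a log2 difference of -1.30 that was -0.55 with normexp.

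Inhbb encodes the beta-B chain of activin B. Its brighter probe had a level of 4.59 in ES and 3.29 in EHe, -3.31 in EHeD7 and -3.83 in EHeD14, and -3.74 in Hepa1-6. On this probe Inhbb was high in both undifferentiated cultures and low in the differentiated hybrids and the hepatoma. It was 97.1-fold lower in EHeD7 than in EHe, 139-fold lower in EHeD14 than in EHe and 322-fold lower in Hepa1-6 than in ES. With normexp these log2 differences of -6.60, -7.12 and -8.33 were -5.65, -5.79 and -6.94. The dimmer probe of Inhbb, which the array lists under the same transcript record, had levels of -1.87 in ES and -2.67 in EHe, then -3.63 in EHeD7 and -3.46 in EHeD14, and was not well above background in Hepa1-6 (-5.97). It gave the same direction for both days against EHe with far smaller sizes, 1.95-fold lower in EHeD7 and 1.73-fold lower in EHeD14, neither past 3-fold, and at least 10.8-fold lower in Hepa1-6 than in ES. The size of the Inhbb difference on differentiation therefore rests on which probe is read, and why the probes differ was not tested.

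**Figure D1:**
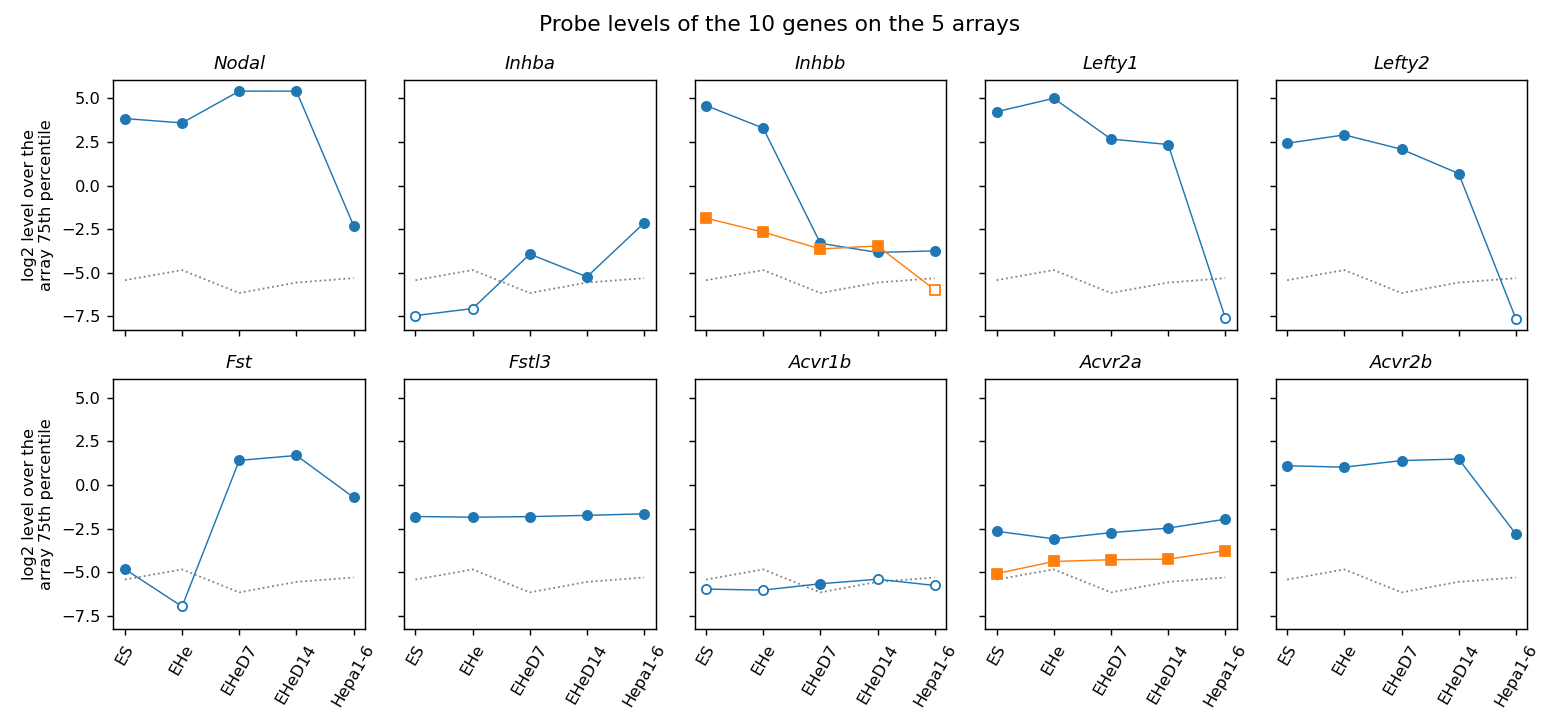
Log2 level over the 75th percentile of the array for the 10 genes on the 5 arrays, 1 array per condition. Circles show the brighter probe of a gene, squares its other probe (Inhbb and Acvr2a), open symbols a signal not well above background, and the dotted line the dimmest signal called well above background on each array. Nodal is highest in EHeD7 (5.42) and EHeD14 (5.41), the brighter Inhbb probe is at 3.29 in EHe and -3.31 in EHeD7, and Fstl3 lies between -1.85 and -1.65 throughout.

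Lefty1 and Lefty2 are neighbouring genes on chromosome 1 (chr1:180935022-180938401 and chr1:180893108-180899107) and are antagonists and targets of Nodal. The Lefty1 level was 4.23 in ES and 0.77 above that in EHe. It was 2.67 in EHeD7 and 2.36 in EHeD14, and in Hepa1-6 (-7.58) it was not well above background. Lefty1 was highest in EHe, and each step down this order exceeded the spot noise limit, but with normexp the step from EHeD7 to EHeD14 (-0.31) did not (-0.21). It was 5.05-fold lower in EHeD7 than in EHe and 6.27-fold lower in EHeD14, while Nodal was higher on both days. Lefty2 stood at 2.43 in ES and 2.91 in EHe, 2.09 in EHeD7 and 0.69 in EHeD14, and -7.63 in Hepa1-6, again not well above background there. The order of the arrays was the same as for Lefty1, with a smaller and later difference, 1.77-fold lower in EHeD7 than in EHe and 4.65-fold lower in EHeD14. Against ES, Hepa1-6 was at least 743-fold lower for Lefty1 and at least 213-fold lower for Lefty2, log2 bounds of -9.54 and -7.73 that were -8.08 and -6.28 with normexp. The genes are close paralogues, and whether a probe takes up signal from the other gene was not tested.

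Fst encodes follistatin, which binds activins with high affinity and keeps them from their receptors. Its level was -4.82 in ES, not well above background in EHe (-6.96), then 1.41 in EHeD7 and 1.69 in EHeD14, and -0.71 in Hepa1-6. Fst was high in the differentiated hybrids and the hepatoma and at or near the detection limit in the undifferentiated cultures. It was at least 76.0-fold higher in EHeD7 than in EHe and at least 92.4-fold higher in EHeD14, and 17.3-fold higher in Hepa1-6 than in ES. These sizes depended on the scaling, with log2 differences from EHe of 5.13 in EHeD7 and 5.47 in EHeD14 under normexp background correction, and for Hepa1-6 against ES of 2.42 under normexp and 4.90 with median centring, where the main value was 4.12. The step from EHeD7 to EHeD14 was 1.22-fold. Fstl3, the related activin-binding protein, had levels of -1.81, -1.85, -1.81, -1.74 and -1.65 in ES, EHe, EHeD7, EHeD14 and Hepa1-6. No neighbours in its order were apart beyond spot noise and the whole range was 1.14-fold, although its small differences from EHe changed sign with the scaling and with median centring Hepa1-6 lay 0.94 above ES.

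The type I receptor gene Acvr1b, which encodes ALK4, was well above background in EHeD7 alone (-5.66), so no fold is given for it. The type II receptor gene Acvr2a had a brighter probe at -2.65 in ES and -3.09 in EHe, -2.73 in EHeD7 and -2.47 in EHeD14, and -1.96 in Hepa1-6. No comparison of Acvr2a passed 3-fold on either probe, and the probes gave opposite directions for EHe against ES (-0.44 and 0.69). Acvr2b, the other type II receptor gene, lay at 1.10 in ES and 1.02 in EHe, 1.40 in EHeD7 and 1.49 in EHeD14, and -2.81 in Hepa1-6. It differed by less than 3-fold among the 4 arrays that shared a slide and was 15.1-fold lower in Hepa1-6 than in ES, a log2 difference of -3.92 that was -3.13 with median centring.

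Counted over the 10 genes on their brighter probes, none of the 8 well above background in EHe or ES passed 3-fold in either direction, where 2.90% of all probes tested were more than 3-fold higher and 3.16% lower. All 10 were well above background on at least 1 of the EHeD7 and EHe arrays, which is what measured means below, and 2 were higher (Nodal and Fst) and 2 lower (Lefty1 and Inhbb), with no fold for Acvr1b, beside 5.36% and 3.82% of all probes. Against the same EHe array, EHeD14 had 2 of 9 higher (Nodal and Fst) and 3 lower (Lefty1, Lefty2 and Inhbb), with no fold for Inhba, beside 5.81% and 4.23% of all probes. These comparisons share the EHe array. A gene or probe measured but without a fold, its signal lying under the limit, or the dim signal, taken on the other array, could not pass and is counted as not past 3-fold, here and below. In EHeD14 against EHeD7 none of the genes with a fold, all but Acvr1b, passed 3-fold, where 0.661% of probes were higher and 0.640% lower. In Hepa1-6 against ES, 2 of 9 were higher (Inhba and Fst) and 5 lower (Nodal, Lefty1, Lefty2, Inhbb and Acvr2b), beside 13.4% and 19.4% of all probes. Which side held more of all probes depended on the scaling. For Hepa1-6 and ES, 3685 were higher in Hepa1-6 and 5310 lower, but 4766 and 3729 with quantile normalization and 6503 and 2844 with median centring. It also turned in EHe against ES with quantile normalization and median centring, in EHeD7 and EHeD14 against EHe with median centring, and in EHeD14 against EHeD7 with normexp and quantile normalization. Since the genes were chosen by these signals, nothing is read from their counts against those shares. The 16 member differences past 3-fold kept their direction and stayed past 3-fold under every planned setting that gave them a value. The dimmer Inhbb probe, which was not among the planned settings, did not pass 3-fold in EHeD7 or EHeD14 against EHe.

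A wider list of the pathway held 39 further genes, 37 of them with a probe. It was chosen with earlier results of these data known. For that reason nothing is read from its counts or medians against those of all probes, here and below. Among the 9 co-receptors, other ligands and processing enzymes, none passed 3-fold in EHe against ES, beside 2.90% of all probes higher and 3.16% lower. Tdgf1, which encodes the Nodal co-receptor Cripto, lay at 3.27 in ES and 3.83 in EHe, then 3.76 in EHeD7 and 3.66 in EHeD14, and was not well above background in Hepa1-6 (-6.38). Thus the Tdgf1 signal was held in the differentiated hybrids and was at least 382-fold lower in Hepa1-6 than in ES. Cfc1, the other co-receptor gene, was well above background on every array. It lay at -1.29 in ES and -0.04 in EHe, 0.49 in EHeD7 and 0.03 in EHeD14, and -2.17 in Hepa1-6, and passed 3-fold in no comparison. Gdf3, a Nodal-related ligand of pluripotent cells, was 3.68-fold lower in EHeD7 than in EHe and 3.63-fold lower in EHeD14. Inhbc, which encodes the beta-C chain, was 5.95-fold lower in EHeD7 and at least 4.30-fold lower in EHeD14, but with normexp background correction it no longer passed 3-fold on either day (log2 differences of -0.84 and -1.20). In Hepa1-6 against ES, 6 of the 9 were lower (Tdgf1, Gdf1, Gdf3, Inha, Inhbc and Inhbe) and 1 higher, Furin, a protease that cleaves the Nodal precursor, by 12.9-fold, beside 19.4% of all probes lower and 13.4% higher. Inhbe, at 3.22-fold, lost its call under each other scaling. In EHeD14 against EHe, where its main log2 difference was -1.44, it gained a call with quantile normalization (-1.63) and median centring (-1.59). Under these 2 scalings 3 genes of the list were lower there in place of 2. The median log2 difference of the list was -0.48 in EHeD7 and -0.90 in EHeD14 against EHe, beside -0.08 and -0.07 over all probes tested, and -2.67 in Hepa1-6 against ES, beside -0.34.

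Of the 7 further receptors and inhibitors with a probe, 5 were measured in EHeD7 against EHe and 5 in EHeD14 against EHe. None of these passed 3-fold, beside 5.36% of all probes higher and 3.82% lower in EHeD7 and 5.81% and 4.23% in EHeD14. Tgfbr3 had no fold in EHeD7 and could not pass. With so few genes, nothing is read from these counts. Acvr1c, which encodes the other type I receptor used by Nodal, was not well above background on any array. Fstl1, a follistatin-related secreted protein, had levels of 0.60 in ES and 2.93 in EHe, then 2.77 in EHeD7 and 2.88 in EHeD14 and was not well above background in Hepa1-6. It was 5.02-fold higher in EHe than in ES, and higher than in either parent. Of the 4 genes of this list measured in EHe against ES it alone passed 3-fold, beside 2.90% of all probes higher and 3.16% lower. Cer1, a secreted Nodal antagonist, was well above background in EHeD14 alone (-4.42), at least 3.33-fold over EHeD7, and this call was lost with normexp (0.54). In Hepa1-6 against ES, Acvr1 was 4.71-fold higher, Bambi, a pseudoreceptor, 5.30-fold lower, and Tmeff1, a membrane inhibitor that binds Cripto, at least 154-fold lower.

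All 12 SMAD and nuclear partner genes with a probe were measured in every comparison. In EHe against ES none passed 3-fold, beside 2.90% of all probes higher and 3.16% lower. Levels of Smad4 ran from 3.36 in ES to 3.73 in EHeD7 on its brighter probe, and on the other in another order, from 1.14 in EHe to 2.63 in Hepa1-6. Smad2 was 1.67-fold lower and Smad3 2.01-fold higher in EHeD7 than in EHe, neither past 3-fold. Foxh1, the DNA-binding partner of the Nodal SMADs, lay between 1.84 in Hepa1-6 and 2.54 in ES. The gene past 3-fold on differentiation was Pmepa1, a TGF-beta-inducible inhibitor that sequesters Smad2 and Smad3, 4.12-fold higher in EHeD7 than in EHe and 4.76-fold higher in EHeD14. On each day it was 1 of 12, beside 5.36% and 5.81% of all probes higher, and none was lower, beside 3.82% and 4.23%. The other probe of Pmepa1 gave 2.15-fold and 2.49-fold. Skil, which encodes the SMAD corepressor SnoN, was 2.35-fold and 2.31-fold higher, under the 3-fold limit. In Hepa1-6 against ES, Smad3 was 6.89-fold higher and Pmepa1 at least 29.0-fold lower, beside 13.4% of all probes higher and 19.4% lower. With median centring Smad2 and Nedd4l also passed 3-fold upward. The median of the list in that comparison was 0.03, beside -0.34 over all probes.

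Genes of the primitive streak and node, among them known targets of Nodal, had 4 of 8 measured genes past 3-fold in EHeD7 and 6 of 8 in EHeD14, all higher than in EHe, beside 5.36% and 5.81% of all probes. Their median log2 difference was 1.91 in EHeD7 and 2.98 in EHeD14. With normexp 3 of these genes were past 3-fold in EHeD7 and 5 in EHeD14. As the list was chosen with earlier results of these data known, the counts are a description only. Eomes, a T-box factor of the streak, was at -4.04 in ES and -3.38 in EHe, then 0.62 in EHeD7 and 0.59 in EHeD14, 16.0-fold and 15.7-fold above EHe. The T gene, which encodes Brachyury, was at 1.62 in EHeD7 and 1.71 in EHeD14 and not well above background in EHe, at least 88.0-fold and 93.7-fold higher. Both T-box genes were bright on both days. Nodal was highest on the same days, while its targets Lefty1 and Lefty2 were lower than in EHe. Whether Nodal had a part in these levels was not tested. Fgf8 was 8.78-fold higher in EHeD7 and 18.7-fold higher in EHeD14. Gsc, a homeobox gene of the organizer, was at least 5.13-fold and 11.7-fold higher, the day 7 call being lost with normexp (1.26).

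The endoderm genes of that list followed another course. Foxa2 was at -2.85 in ES, not well above background in EHe (-6.93), then at -4.57 in EHeD7 and -2.43 in EHeD14, and at 3.38 in Hepa1-6. Sox17 was at -1.27 in ES and -3.97 in EHe, then -2.95 in EHeD7 and -1.74 in EHeD14, and not well above background in Hepa1-6. Both were more than 3-fold lower in EHe than in ES, Foxa2 at least 3.97-fold and Sox17 6.50-fold, and more than 3-fold higher again in EHeD14, where the Sox17 call was lost with normexp (1.35). Foxa2 was 4.40-fold higher in EHeD14 than in EHeD7, also lost with normexp (1.18). In Hepa1-6 against ES, Foxa2 was 75.2-fold higher, while Sox17 was at least 16.4-fold and Gsc at least 3.43-fold lower, the Gsc call being lost under each other scaling. Lhx1 passed 3-fold in no comparison and Mixl1 was not well above background on any array.

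**Figure D2:**
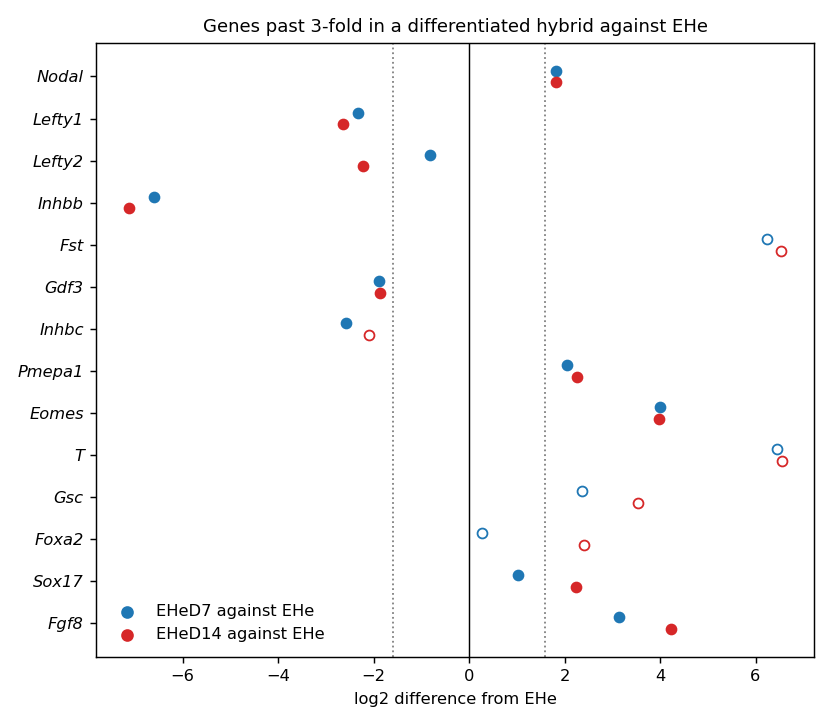
Log2 difference of EHeD7 (blue) and EHeD14 (red) from EHe for the 5 genes of the axis and 9 further pathway genes past 3-fold on at least 1 of these days, 1 array per condition. Open symbols are lower bounds on the size, against a signal not well above background, and dotted lines mark 3-fold. Nodal and Fst lie to the right on both days, Lefty1, Lefty2 and the brighter Inhbb probe to the left, and Fst has a bound of 6.25 in EHeD7 and 6.53 in EHeD14.

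Over the whole wider list, 5 of 34 genes measured in EHeD7 against EHe were higher and 2 lower, beside 5.36% and 3.82% of all probes, and in EHeD14 against EHe 7 of 34 were higher and 2 lower, beside 5.81% and 4.23%. The medians were 0.26 and 0.34, beside -0.08 and -0.07 over all probes tested. In EHe against ES 2 of 33 were higher and 2 lower, beside 2.90% and 3.16%, with a median of 0.10. In EHeD14 against EHeD7 2 of 35 were higher, beside 0.661%, and none lower, with a median of -0.01. With normexp neither of these 2, Cer1 and Foxa2, was past 3-fold, and of all probes 36 were higher in place of 186. In Hepa1-6 against ES 4 of 33 were higher and 13 lower, beside 13.4% and 19.4%, with a median of -1.26. The other counts of the wider list under normexp were 4 higher and 1 lower in EHeD7 against EHe, 6 and 1 in EHeD14 against EHe, 1 and 2 in EHe against ES, and 4 and 11 in Hepa1-6 against ES. The counts of all probes fell as well. They were 899 higher and 496 lower in place of 1505 and 1073 in EHeD7 against EHe. In EHeD14 against EHe they were 950 and 608 in place of 1551 and 1130. In EHe against ES they were 230 and 393 in place of 759 and 826. In Hepa1-6 against ES they were 2500 and 3384 in place of 3685 and 5310.

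Markers of other cell types moved between the same arrays. Of 8 fibroblast and mesenchyme markers, 6 were well above background in each differentiated hybrid, 4 in EHe, 3 in ES and 2 in Hepa1-6. Their summed linear level was 0.951 in ES and 0.340 in EHe, 2.52 in EHeD7 and 2.34 in EHeD14, and 176 in Hepa1-6. The brightest was Col1a1 in both differentiated hybrids (0.29 and 0.11), and Dcn and Lum were not well above background there. In Hepa1-6 the sum was almost entirely Dcn (7.46). All 6 trophoblast markers were well above background in EHeD7, 5 of 6 in EHeD14 and ES, 3 in EHe and 2 in Hepa1-6. Their summed level was 22.3 in ES and 11.0 in EHe, 70.3 in EHeD7 and 100.2 in EHeD14, and 384 in Hepa1-6. In the differentiated hybrids and Hepa1-6 most of the sum came from Krt8 and Krt18, keratins that other simple epithelia also make. In EHeD7 and EHeD14, Krt8 was 50.9-fold and 77.8-fold higher and Krt18 69.9-fold and 94.8-fold higher than in EHe. The other genes of that list went in different directions. Hand1 was at least 27.6-fold higher in EHeD7 and at least 35.2-fold higher in EHeD14 than in EHe, Cdx2 was well above background in ES and on both days but not in EHe, Elf5 was so in EHeD7 alone, and Tfap2c went from 3.29 in EHe to -0.51 in EHeD7 and -1.83 in EHeD14. The summed level of the 6 primitive and visceral endoderm markers was 54.8 in ES and 36.9 in EHe, 43.4 in EHeD7 and 46.1 in EHeD14, and 27.3 in Hepa1-6, each led by Sparc. The steady sum hid differences past 3-fold in other genes of that list. Dab2 was 5.83-fold and 12.2-fold higher and Lamb1 7.42-fold and 7.20-fold higher in EHeD7 and EHeD14 than in EHe, Gata6 was 3.64-fold higher in EHeD14, and Sox7 was 8.05-fold lower in EHeD7. Against ES, Gata6 was 12.9-fold and Dab2 6.43-fold lower in EHe. All 6 were well above background in the ES and hybrid arrays, and Gata6 and Sox7 were not in Hepa1-6. The 3 melanocyte and blood markers with a probe were not well above background on any array. The part of these cell types in the Nodal, Fst and Inhbb differences was not tested.

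The genes whose pattern over the 5 arrays was nearest to that of a member were sought for the 4 members of largest range, among 7566 other genes that varied more than 3-fold, by the root mean square distance between levels centred on each gene's own mean, with dim signals at the detection limit. Nearest to Nodal were Cers4 (distance 0.18), Fhl1 (0.24) and Rcn3 (0.25). Cers4 was not well above background in Hepa1-6 (-6.59), so its distance and its place before the others rest on the detection limit. For Lefty1 they were Tcf15 (0.25), Klf5 (0.27) and Gtsf1l (0.49), and for Lefty2 Mageb16 (0.33), Sfrp2 (0.42) and Pnma2 (0.42). Klf5, a pluripotency factor, lay at 5.01 in ES and 5.22 in EHe, 2.85 in EHeD7 and 2.51 in EHeD14, and -4.63 in Hepa1-6. For the brighter probe of Inhbb the nearest were Ak7 (0.57), Myo1f (0.66) and Aqp3 (0.68). Of the neighbours named here, only Fhl1, Rcn3, Klf5 and Aqp3 were well above background on all 5 arrays. Lefty1 and Lefty2 were themselves dim in Hepa1-6. The other distances are partly set by the detection limit, so closeness is not compared between members. Aqp3, an aquaglyceroporin, went from 4.83 in ES and 3.35 in EHe to -2.08 in EHeD7 and -2.20 in EHeD14.

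Promoter windows of RefSeq (GRCm38.p6), 250 bases before to 50 bases after a transcription start listed for a gene, were matched for 7 of the 10 genes, with no entry for Lefty1, Lefty2 and Fst. The windows of Inhba and Acvr2b lie at starts inside the annotated span of the gene, from chr13:16011601 and chr9:119401928, while the spans begin at 16004256 and 119401583. All 7 windows were searched on both strands for AATCCACA, letters bound by FOXH1, and GTCTAGAC, a palindrome bound by SMADs. Neither was found in any of the 7 windows. Over all 32851 windows AATCCACA was in 0.855% and GTCTAGAC in 0.213%. Other letters were added after the windows had been seen, TATAAA (13.6% of all windows), CCAAT (37.4%) and GGGCGG (35.7%), and matches to different letters did not overlap in the 7 windows. The receptor windows were rich in G and C, 79.7% for Acvr1b, 80.3% for Acvr2a and 73.3% for Acvr2b, beside a median of 52.7% over all windows, and held 4, 3 and 3 copies of GGGCGG on either strand. Nodal had 54.0% G and C, Inhba 47.7%, Inhbb 64.3% and Fstl3 70.7%. Inhba held TATAAA on its own strand, from 91 bases before the listed start. Fstl3, whose level varied least, held TATAAA on the opposite strand only, as TTTATA from 29 bases before the start, and 4 copies of GGGCGG, all as CCGCCC, which overlap in pairs.

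The bases before the start are shown for Nodal and Inhbb, the ligand genes that moved in opposite directions on differentiation, with matches to the searched letters in capitals on either strand. The Nodal stretch is chr10:61417722-61417971 on the plus strand and holds a CCAAT, and the Inhbb stretch is chr1:119422249-119422498 on the minus strand and holds GGGCGG as CCGCCC.
Nodal: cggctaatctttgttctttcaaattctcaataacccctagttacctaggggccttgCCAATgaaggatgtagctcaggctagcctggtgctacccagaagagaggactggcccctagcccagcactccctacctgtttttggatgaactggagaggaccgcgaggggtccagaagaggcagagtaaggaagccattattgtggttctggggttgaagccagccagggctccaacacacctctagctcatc
Inhbb: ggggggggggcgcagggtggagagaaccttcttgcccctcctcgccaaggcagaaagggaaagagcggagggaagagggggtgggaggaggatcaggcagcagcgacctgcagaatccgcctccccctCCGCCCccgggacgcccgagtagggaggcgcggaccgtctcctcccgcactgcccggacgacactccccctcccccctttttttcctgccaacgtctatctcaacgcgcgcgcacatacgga
A match is a description of these letters and not of a bound site.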

How the data were processed

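Gene expression was measured on 5 Agilent 1-colour mouse oligo arrays, 1 per condition. For each spot the authors deposited the processed signal, an intensity in linear units that Agilent Feature Extraction 10.7.3.1, per the submitters' processing notes, had corrected for background, without normalization between arrays. The software's deposited flags for background, outliers and saturation were used as given. The labels name Cy3 as the dye, while the study's methods name Cy5 and describe embryoid bodies for differentiation.

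Control and outlier spots were left out, no gene spot was saturated, and the 75th percentile of an array was subtracted from its log2 signals before spots of the same probe were averaged. Of 41174 probes, 41064 had a value on all arrays, and 26835 of these were named through RefSeq transcript accessions. A gene was read on its probe of highest mean level. All probes well above background on at least 1 of the 2 arrays compared were the background of a count. A count thus took 1 probe per gene while its background took every such probe, so the 2 are unlike units. All 10 genes, and the pathway genes past 3-fold or needed for their role, were named, except 1 that is counted but not reported here. The members and lists were chosen with earlier results of these data known. Scripts were tested on simulated data. Python 3.11.15, numpy 2.4.6, pandas 2.3.3, matplotlib 3.10.9, R 4.3.3 and limma 3.58.1 were used. Alternatives were normexp (offset 50, on median spot signals), quantile normalization, median centring, dim signals as measured, both arrays well above background, the mean of a gene's probes, a 2-fold threshold and the deposited series table.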

Additional observations from a re-analysis of the deposited data

How the results depend on the processing

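No paired analysis was possible because there was just 1 array per condition. Of 80 counts of members recomputed, 73 stayed within 1.5 times the main count and 7 did not. With dim signals as measured, 1 member was more than 3-fold lower in EHe than in ES. With only genes well above background on both arrays, 1 member was higher in EHeD7 than in EHe, 1 in EHeD14 than in EHe and 1 in Hepa1-6 than in ES, and 3 were lower in Hepa1-6, since this leaves out genes dim on 1 array. At 2-fold, 1 member was lower in EHe than in ES and 2 in EHeD14 than in EHeD7, by the looser threshold. Of 302 recomputed log2 differences of single members, 251 stayed within the spot noise limit, 51 moved and none past 3-fold reversed. The other probe of Inhbb and Acvr2a was added as an alternative after the data had been seen. The Inhbb difference of EHeD7 from EHe was -6.60 on the brighter probe, -5.65 with normexp, -3.78 as the mean of both probes and -0.96 on the dimmer probe.

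Median centring moved the median difference of all probes by 0.11 in EHe against ES, by -0.18 in EHeD7 and -0.16 in EHeD14 against EHe and by 0.78 in Hepa1-6 against ES, and quantile normalization moved the last by 0.23. Of the probes called in Hepa1-6 against ES, 41.0% were higher, 56.1% with quantile normalization and 69.6% with median centring, and in EHe against ES 47.9%, 36.9% with normexp and 58.2% with median centring. In EHeD7 against EHe 58.4% were higher, 64.4% with normexp and 49.2% with median centring, and in EHeD14 against EHe 57.9%, 61.0% and 49.9%. Across the planned settings the Hepa1-6 difference from ES ran from -6.14 to -5.35 for Nodal, from -11.81 (dim signals as measured) to -8.08 (a bound with normexp) for Lefty1, from -10.06 to -6.28 in the same way for Lefty2, from -8.33 to -5.89 for Inhbb and from -3.92 to -3.13 for Acvr2b. The direction of Foxh1, Drap1 and Tgif1 in Hepa1-6 against ES turned with median centring. Sizes for Acvr1b, Inhba and Fst in the undifferentiated cultures are limited by signal over background.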
